A study of Mus musculus with 7 samples.

Results

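Peroxins are the proteins that build peroxisomes, the organelles in which hepatocytes shorten very long fatty acids, make bile acid intermediates and break down hydrogen peroxide. The mRNAs of 8 of them were followed here in fasted mouse liver: Pex11a, Pex16, Pex19, Pex5, Pex7, Pex14, Pex2 and Pex6. They were chosen by gene name among 36492 gene names on the array and are read by 9 of its 55681 probes, Pex6 by a pair of probes and the others by 1 each. The names printed in the array files find 7 of the 8 genes. Pex2 stands there under its older symbol Pxmp3 and was found through its RefSeq accession.

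Livers came from 3 WT mice (C57BL/6) and 4 SHIVA mice, all female, 8 to 12 weeks old and fasted for 24 h. SHIVA mice descend from an ENU (N-ethyl-N-nitrosourea) mutagenesis screen, were backcrossed to C57BL/6, and carry on 1 chromosome a missense mutation that exchanges a methionine for an arginine in the HMG DNA-binding domain of the transcription factor Sox17. The mutation is in every cell of the animal, so the liver arrays do not separate its effect in hepatocytes from that in other cells. Each liver was hybridized to a single-colour Agilent array of its own. The array probe for Sox17 cannot see an exchanged base, and its log2 signal was 4.53, 3.42 and 3.93 in WT replicates 1 to 3 and 4.63, 4.47, 4.77 and 4.71 in SHIVA replicates 1 to 4. These ranges overlapped, so the signal of Sox17 itself does not check the labels.

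Background for reading the values is as follows. Pex3, Pex16 and Pex19 put membrane proteins into the peroxisomal membrane: Pex19 is the soluble carrier that holds the newly made protein, and Pex16 is a membrane-bound partner in that step. Matrix enzymes are folded in the cytosol, where Pex5 recognizes those with a targeting signal at their carboxyl end and Pex7 those with a signal near their amino end. Both receptors dock at Pex14, and the receptor is afterwards tagged with ubiquitin by RING proteins, among them Pex2 and Pex10, and pulled back out by an ATPase complex that holds Pex6. Pex11 proteins bend and elongate the membrane before fission, and Pex11a is the member of that family whose gene is known to be switched on in rodent liver by PPARα, the nuclear receptor that answers to fatty acids during fasting.

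The results turn on Pex11a and Pex16, and the probes that read them are shown so that the measured stretch of each transcript is known. Both are 60 bases long and written 5′ to 3′, with no part set in capitals. The Pex11a probe lies on chr7:86882223-86882282 on the minus strand and the Pex16 probe on chr2:92221196-92221255 on the plus strand, in mm9, the build of the array files.
Pex11a probe: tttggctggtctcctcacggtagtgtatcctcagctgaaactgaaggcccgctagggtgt
Pex16 probe: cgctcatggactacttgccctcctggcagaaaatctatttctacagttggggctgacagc

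The qRT-PCR primers that came with the study for Pex11a are shown because the forward one could be placed near the start of the gene.
Pex11a forward primer: gacgccttcatccgagtcg
Pex11a reverse primer: cggcctctttgtcagctttaga
In GRCm38.p6 the RefSeq promoter windows were searched. The forward primer was found at chr7:79742944-79742962 on the minus strand, within the Pex11a gene (chr7:79735957-79743131). The reverse primer was not in the windows searched, which draws nothing about where it binds.

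None of the 8 peroxins passed the threshold of the comparison across all genes, an adjusted p under 0.05 from limma with Benjamini-Hochberg adjustment. Over 20002 genes tested, 75 passed, or 0.375%, and 38 passed as lower in SHIVA livers, or 0.19%. At an unadjusted p under 0.05 stood 3 of the 8 peroxins (Pex11a, Pex16 and Pex19) and 2667 of all genes. For the same 3 peroxins every SHIVA liver lay below every WT liver. Such a separation was found for 1204 of all genes tested, or 6.02%, and the opposite separation for 1228, or 6.14%, and for 0 of the 8 peroxins. The fitted log2 fold change, SHIVA over WT, was below 0 for 8 of 8 peroxins with a median of -0.34, against a median of -0.01 over all genes. The peroxins were chosen with earlier results of these data known, so this common sign is a description. It is also not stable for all of them, since Pex2, Pex6 and Pex7 lay near 0. The signs of Pex6 and Pex7 depended on the processing and on the mice included. That of Pex2 turned only without WT replicate 1.

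**Figure D1:**
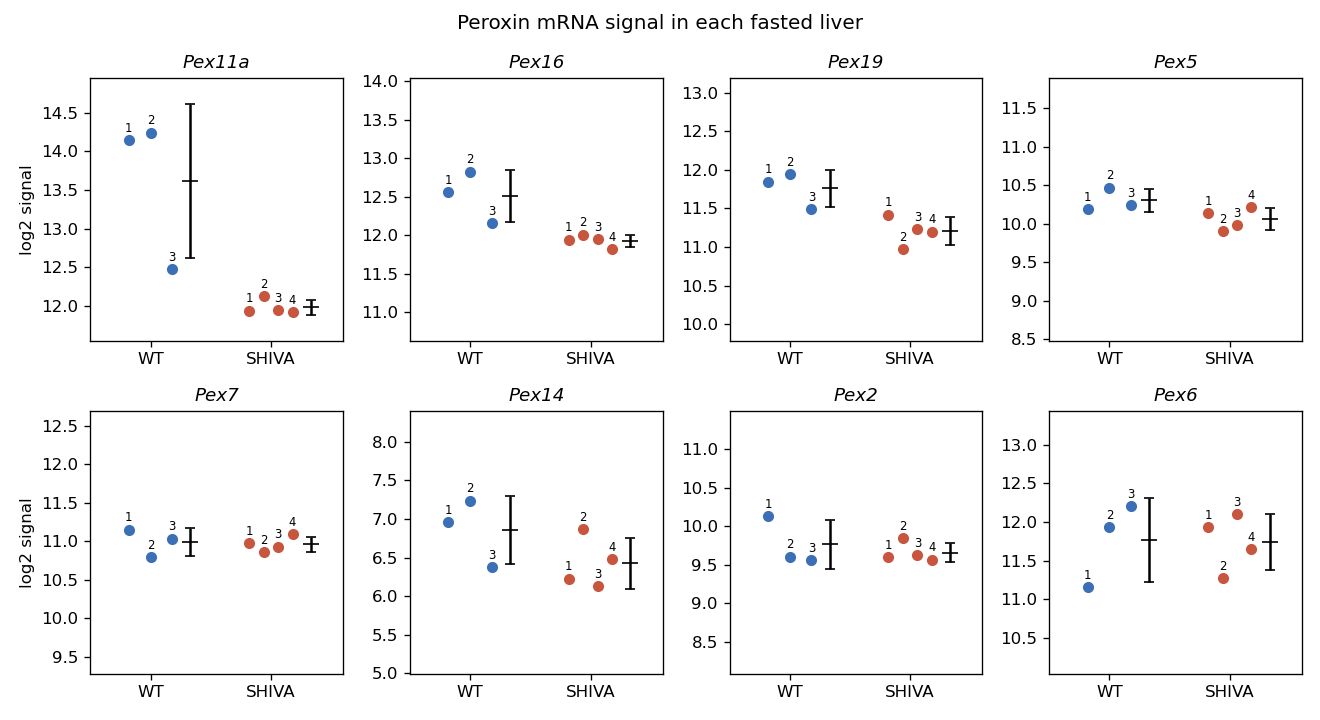
Log2 signal of the 8 peroxins (vertical axes, each spanning the same number of log2 units) in every fasted liver, with replicate numbers beside the points; the bars are the mean and SD of 3 WT (blue) and 4 SHIVA (red) livers. Pex11a, Pex16 and Pex19 have no SHIVA liver above a WT liver, and WT replicate 3 is the WT liver nearest to the SHIVA group in all 3.

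Pex11a, the elongation factor of the peroxisomal membrane, differed most. Its log2 signal was 14.14, 14.24 and 12.47 in WT replicates 1 to 3, and 11.94, 12.12, 11.94 and 11.91 in SHIVA replicates 1 to 4. A pair of WT livers thus stood far above all others, while WT replicate 3 lay 0.35 above the highest SHIVA liver. The fitted log2 fold change was -1.64 (SE 0.39, 95% interval from -2.53 to -0.75, limma adjusted p = 0.145), which corresponds to a 3.12-fold higher geometric mean in WT livers. The exact permutation test of the 7 mice, two-sided, gave p = 0.0286, the smallest value that their 35 splits into 3 and 4 allow. WT livers spread over 1.77 log2 units (SD 1.00, n = 3) and SHIVA livers over 0.21 (SD 0.098, n = 4).

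Pex11a passed the threshold in a pair of the 17 alternative fits. It did not pass in the other 15, where its adjusted p reached 0.443 (limma). Without WT replicate 3 the log2 fold change was -2.22 and passed (limma adjusted p = 0.00312), in a fit that called 2.1% of 19784 genes. With arrays weighted by their agreement with the group means, it was -1.87 (limma adjusted p = 0.0359), in a fit that called 1.34% of all genes. That fit kept WT replicate 3 at a low weight of 0.575, against 0.583 for WT replicate 1 and 1.358 for WT replicate 2. SHIVA replicates 1 to 4 had weights of 3.363, 0.503, 1.510 and 0.859, so the lowest weight of all fell on SHIVA replicate 2. WT replicate 3, the WT liver nearest to the SHIVA group, was absent only from the other fit. Which of the weights moved Pex11a past the threshold was not tested. In both fits Pex11a was the 1 peroxin called.

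The Pex11a probe is printed 10 times on each array, which gives the error between spots of 1 array. Error of labelling or hybridization is common to these spots. With 1 array per liver it cannot be told apart from the difference between mice. Between 8 and 10 spots per array could be used. The SD between spots of 1 array ranged from 0.057 to 0.112 log2 units, so the spots of WT replicate 3 (12.37 to 12.56) did not reach those of WT replicate 1 (14.02 to 14.25) or of any SHIVA liver, the highest of which was 12.20. The spread between WT livers was larger than the spot error.

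**Figure D2:**
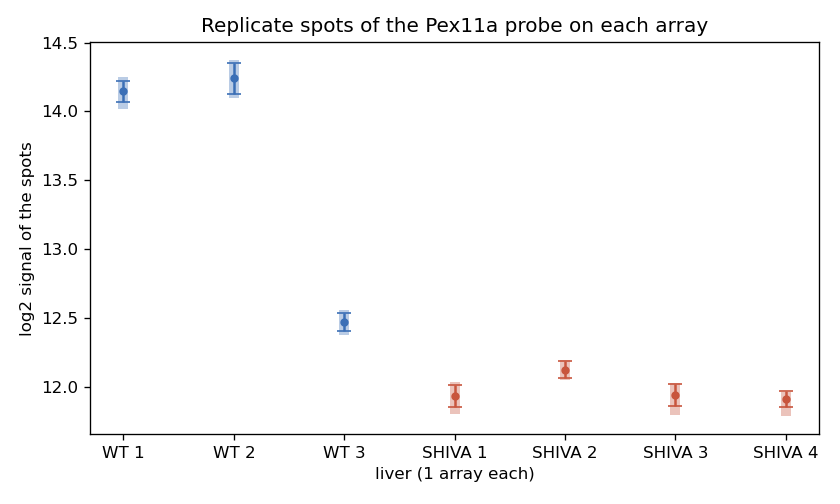
Log2 signal of the replicate spots of the Pex11a probe (vertical axis) on the array of each liver (horizontal axis); points and error bars are the mean and SD over spots, and the pale bars run from the lowest to the highest spot. The spots of WT replicate 3 lie between 12.37 and 12.56, apart from those of the other WT livers and of all SHIVA livers.

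The starts of Pex11a and Wdr93 lie head to head, and their gene models overlap by 184 bases on opposite strands in GRCm38.p6. Wdr93 was near background. Its log2 signal was 4.28, 4.10 and 2.17 in WT livers and 3.16, 2.14, 3.49 and 2.92 in SHIVA livers, so the groups overlapped (log2 fold change -0.59, SE 0.52, limma adjusted p = 0.690). It was well above background in 2 WT livers and 1 SHIVA liver.

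The membrane insertion factors came next. Pex16 had a log2 signal of 12.56, 12.83 and 12.16 in WT livers and 11.95, 12.01, 11.95 and 11.82 in SHIVA livers. The groups were separated by 0.15, and WT replicate 3 was again the lowest WT liver. The log2 fold change was -0.59 (SE 0.18, 95% interval from -0.99 to -0.18, limma adjusted p = 0.233), and the exact permutation test gave p = 0.0286.

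Pex19, the carrier for membrane proteins (probe on chr1:174065081-174065140, plus strand), had a log2 signal of 11.85, 11.94 and 11.49 in WT livers and 11.42, 10.98, 11.23 and 11.20 in SHIVA livers. Here the gap between the lowest WT and the highest SHIVA liver was 0.074, which is smaller than the SD within either group (0.24 in WT, 0.18 in SHIVA). The log2 fold change was -0.55 (SE 0.17, 95% interval from -0.95 to -0.16, limma adjusted p = 0.233), and the exact permutation test gave p = 0.0286. Pex3, the membrane receptor to which Pex19 delivers, had 10.21, 10.07 and 9.79 in WT livers and 9.69, 9.80, 9.64 and 9.78 in SHIVA livers, with groups that overlapped by SHIVA replicate 2 and a log2 fold change of -0.30 (limma adjusted p = 0.443).

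Of the import receptors, neither separated the groups. Pex5 (probe on chr6:124346891-124346950, minus strand) had a log2 signal of 10.19, 10.47 and 10.24 in WT livers and 10.14, 9.90, 9.98 and 10.22 in SHIVA livers. Only SHIVA replicate 4 reached into the WT range, by 0.026 above the lowest WT liver, and the log2 fold change was -0.24 (95% interval from -0.58 to 0.098, limma adjusted p = 0.540). Pex7 (probe on chr10:19580638-19580696, minus strand) had 11.15, 10.79 and 11.03 in WT livers and 10.98, 10.86, 10.93 and 11.09 in SHIVA livers. The SHIVA values lay inside the WT range, and the log2 fold change was -0.03 with an interval from -0.36 to 0.31 (limma adjusted p = 0.956).

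Pex14, the docking protein of both receptors (probe on chr4:148334648-148334707, minus strand), had a log2 signal of 6.96, 7.24 and 6.38 in WT livers and 6.22, 6.87, 6.13 and 6.48 in SHIVA livers. The groups overlapped, since SHIVA replicates 2 and 4 lay above WT replicate 3. Its log2 fold change was -0.43 (SE 0.25, 95% interval from -1.01 to 0.15, limma adjusted p = 0.518), and it was -0.24 without WT replicate 2 and -0.67 without WT replicate 3, with no call in either fit.

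The receptor recycling machinery gave no separation either. Pex2 (probe on chr3:5560657-5560716, minus strand) had a log2 signal of 10.13, 9.60 and 9.56 in WT livers and 9.60, 9.84, 9.62 and 9.56 in SHIVA livers. WT replicate 1 was the highest of all livers and WT replicate 3 the lowest, with the SHIVA values between them. The log2 fold change of -0.11 (95% interval from -0.51 to 0.30, limma adjusted p = 0.846) turned to 0.08 without WT replicate 1.

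Pex6, the export ATPase, was the most variable peroxin within SHIVA livers. The brighter of its probes (chr17:46861840-46861899, plus strand) had a log2 signal of 11.16, 11.93 and 12.21 in WT livers and 11.94, 11.27, 12.10 and 11.65 in SHIVA livers. Its log2 fold change was -0.03 with an interval from -0.68 to 0.63 (limma adjusted p = 0.980). The other probe (chr17:46850942-46851001, plus strand) had 8.49, 8.43 and 8.91 in WT livers and 8.91, 8.52, 8.69 and 8.66 in SHIVA livers, with a difference of 0.09 the other way. WT replicate 3 was the highest WT liver for both Pex6 probes, whereas it was the lowest WT liver for 5 of the 8 peroxins.

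The rest of the peroxin family was described from a list of 9 further genes, of which 8 were tested and Pex5l, a relative of Pex5 known from brain, was not well above background on any array. In SHIVA livers 7 of the 8 had a fitted fold change below 0, with a median of -0.21. Of the 8, 0 were called and 1 stood at an unadjusted p under 0.05. Over the 20002 genes tested, 75 were called and 2667 stood at such a p, and 6.02% had every SHIVA liver below every WT liver. Pex10, a RING partner of Pex2, had -0.45 (limma adjusted p = 0.359) with non-overlapping groups, and Pex13, which docks receptors beside Pex14, had -0.26 (limma adjusted p = 0.605).

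Pex11g, a relative of Pex11a, had a log2 signal of 12.73, 12.73 and 12.74 in WT livers and 12.75, 12.76, 12.67 and 12.72 in SHIVA livers. The groups overlapped, and the log2 fold change was -0.01 with an interval from -0.29 to 0.27. Pex11g and Pex26, a membrane anchor of the export ATPases, were added to the named genes after their values were seen. The difference between Pex11a and Pex11g was not tested.

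**Figure D3:**
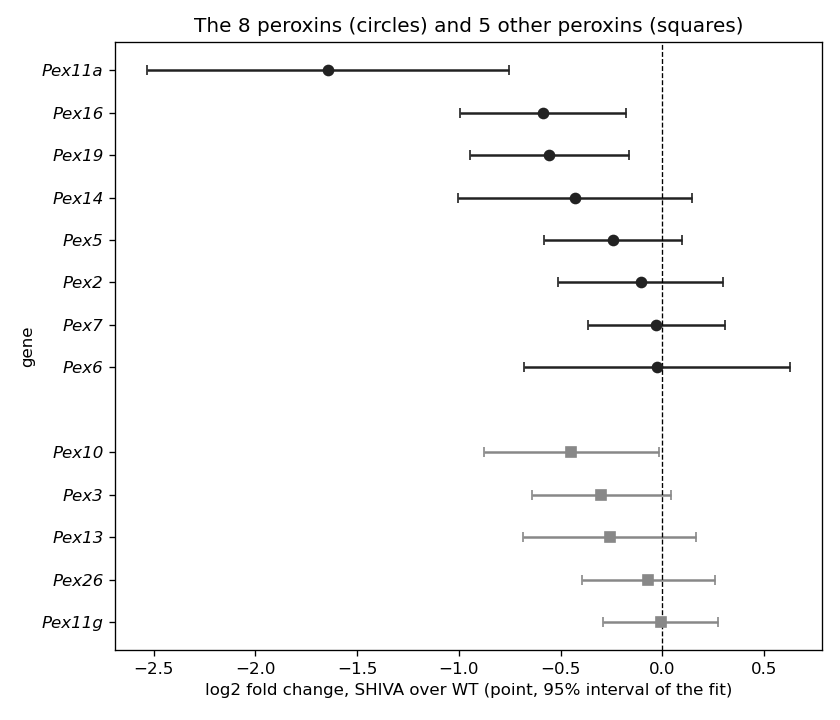
Fitted log2 fold change, SHIVA over WT (horizontal axis), with its 95% interval, for the 8 peroxins (circles) and 5 of the other peroxins tested (squares). The intervals of Pex11a, Pex16, Pex19 and Pex10 lie below 0 before adjustment for the number of genes, and those of the other 9 genes include 0.

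Peroxisomes grow and divide after Pex11 proteins have acted. Of 9 genes for division and membrane contact, 8 were tested, 6 lay below 0 and 2 above, the median was -0.12 and 0 were called. WT and SHIVA livers were separated, with SHIVA lower, for 3 of them, and for 6.02% of all genes tested. Mief2, an adaptor for the fission enzyme Dnm1l, had 7.01, 6.89 and 7.14 in WT livers and 6.30, 6.37 and 6.10 in SHIVA replicates 1 to 3, a log2 fold change of -0.76 (SE 0.16, limma adjusted p = 0.133). The spot of SHIVA replicate 4 was marked as deviant by the scanner software, so the fit of Mief2 rests on 6 livers. Acbd4 (-0.35, limma adjusted p = 0.325) and Fis1 (-0.19, limma adjusted p = 0.611), a tether to the endoplasmic reticulum and a membrane adaptor of fission, were the other separated genes.

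In a list of 10 carriers and channels, made for the peroxisomal membrane, 5 lay below 0 and 5 above, the median was -0.04 and 0 were called. Abcd3, also known as PMP70 and a usual marker of the membrane, had 13.03, 13.38 and 12.90 in WT livers and 12.52, 12.48, 12.46 and 12.56 in SHIVA livers. Its groups were separated, at a log2 fold change of -0.60 (SE 0.15, limma adjusted p = 0.180). Abcd4, a relative of Abcd3 that is known from lysosomes, where it serves cobalamin transport, had -0.78 (limma adjusted p = 0.146), also separated, and Pxmp4 -0.82 (limma adjusted p = 0.257) with overlapping groups. Mpv17 in the same list is known as a protein of the mitochondrial inner membrane. Abcd2, a carrier of very long chain acyl-CoA, had 0.21 (limma adjusted p = 0.722).

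The enzymes that Pex5 and Pex7 carry inside did not move as a block. Of 29 cargo genes listed, 27 were tested, 19 lay below 0 and 8 above, the median was -0.19 and 0 were called. SHIVA livers were below all WT livers for 6 of them and above for 2. Over all genes tested, 6.02% lay below in this way and 6.14% above. Crat, carnitine acetyltransferase, had 8.40, 8.85 and 7.43 in WT livers and 6.87, 7.05, 6.88 and 6.85 in SHIVA livers, with the same low WT replicate 3 as Pex11a and a log2 fold change of -1.31 (SE 0.30, limma adjusted p = 0.133). Agxt, which clears glyoxylate, stood on the other side with 14.50, 14.91 and 15.31 in WT livers and 15.81, 15.96, 15.88 and 15.79 in SHIVA livers, for a log2 fold change of 0.95 (SE 0.20, limma adjusted p = 0.113).

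In the fatty acid shortening pathway, Ehhadh had a log2 fold change of -0.95 (limma adjusted p = 0.313) with overlapping groups. The thiolases Acaa1b (-0.95, limma adjusted p = 0.133) and Acaa1a (-0.48, limma adjusted p = 0.305) were separated, with SHIVA lower. Of 5 genes for the removal of peroxisomes 4 lay above 0, the median was 0.12 and 0 were called, with Atm, a kinase that signals from the peroxisome, at 0.55 (limma adjusted p = 0.329).

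**Figure D4:**
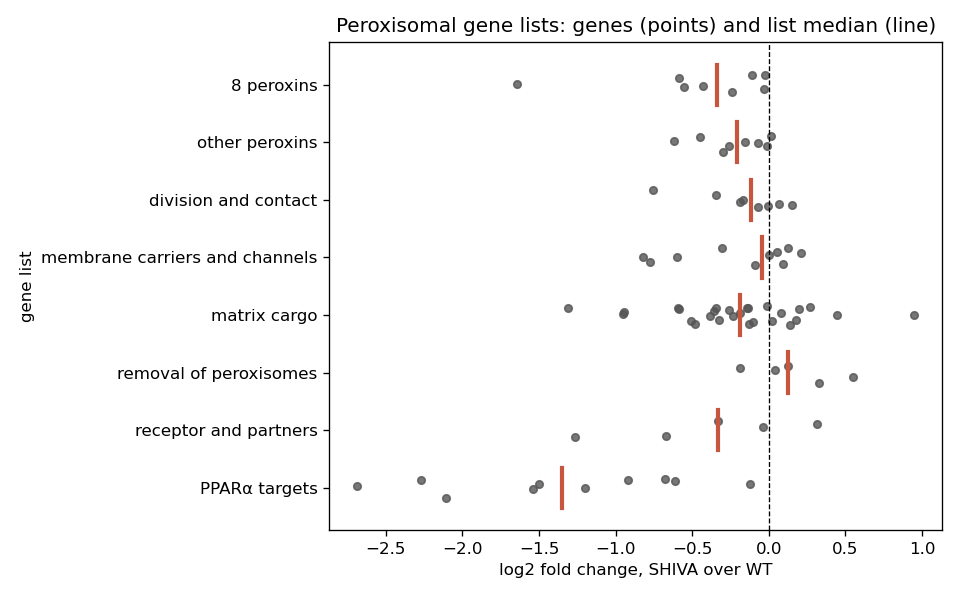
Fitted log2 fold change, SHIVA over WT (horizontal axis), of every tested gene (points) in 8 gene lists (vertical axis), with the median of each list as a red line. The medians of the 8 peroxins (-0.34) and other peroxins (-0.21) lie between those of the membrane carriers (-0.04) and the PPARα targets (-1.35).

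Pex11a was set beside PPARα and other genes it is known to drive. Ppara itself had 12.20, 12.61 and 12.33 in WT livers and 11.66, 11.75, 11.64 and 11.78 in SHIVA livers, separated, with a log2 fold change of -0.67 (SE 0.15, limma adjusted p = 0.132). Med1, a coactivator subunit, had -1.26 (limma adjusted p = 0.127), also separated. In the list of 5 receptor and partner genes 4 lay below 0, the median was -0.33 and 0 were called. Of 10 PPARα targets, 10 lay below 0, 9 stood at an unadjusted p under 0.05, 5 were separated and 0 were called, with a median of -1.35. Over the 20002 genes tested, 2667 stood at an unadjusted p under 0.05, and 6.02% were separated with SHIVA lower.

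The targets had the same order of WT livers as Pex11a, Pex16 and Pex19. The mean log2 signal of the 10 targets was 12.67, 13.28 and 11.71 in WT replicates 1 to 3 and between 11.01 and 11.35 in SHIVA livers. For Acot1, an acyl-CoA thioesterase, WT replicate 3 (9.66) was near SHIVA replicates 2 and 4 (9.71 and 9.54) and the other WT livers stood at 12.50 and 13.09. Cyp4a14, a fatty acid hydroxylase, had 16.30, 16.96 and 15.03 in WT livers and at most 14.67 in SHIVA livers. What set WT replicate 3 apart was not tested.

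**Figure D5:**
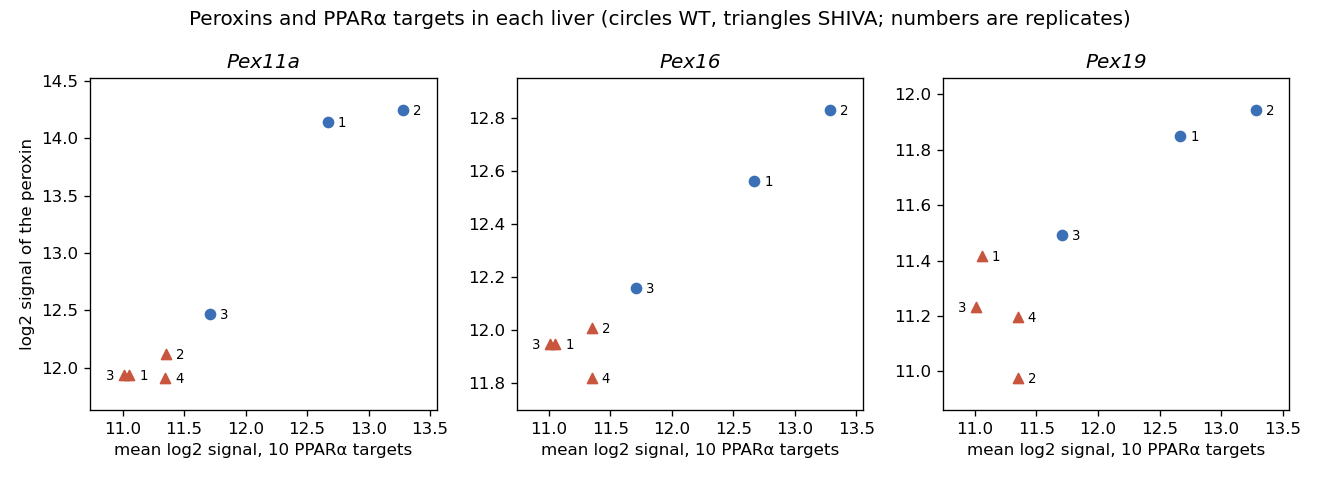
Log2 signal of Pex11a, Pex16 and Pex19 (vertical axes) against the mean log2 signal of 10 PPARα targets (horizontal axes) in each liver, with WT as circles, SHIVA as triangles and replicate numbers beside them. WT replicates 1 and 2 lie at the upper right, and WT replicate 3 (targets 11.71) lies between them and the SHIVA livers (targets 11.01 to 11.35).

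Likeness to Pex11a was measured by Pearson's r of log2 signals over the 7 livers, among 17537 other genes well above background on all of them. The livers fall into a pair of high WT livers and a group of 5, so a high r says mainly that a gene follows the same split, and r is given as a description. Tead3, a TEA domain transcription factor, came first (r = 0.998), followed by a noncoding RNA probe on chromosome 6 (0.995), Tmem82 (0.995), Acot4 (0.994), a peroxisomal acyl-CoA thioesterase, and 2700062C07Rik (0.993). Tead3 had 5.19, 5.26 and 4.71 in WT livers and 4.54, 4.62, 4.55 and 4.52 in SHIVA livers, and Acot4 had 9.83, 9.82 and 8.79 in WT livers and 8.47, 8.55, 8.63 and 8.58 in SHIVA livers.

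Among the peroxins, Pex16 was most like Pex11a (r = 0.976, place 28 of all genes searched), with the 7 livers in the same order for both. Pex19 (0.897) and Pex14 (0.815) followed. Pex5 had 0.651, Pex2 0.499, Pex7 -0.040 and Pex6 -0.286. The peroxins therefore did not follow 1 shared pattern over the livers.

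Markers of liver cell types were read on the same arrays. All 7 hepatocyte markers were tested, 4 lay above 0 and 3 below with a median of 0.03, and 0 were called. They ran from Cyp2e1 (-0.35, limma adjusted p = 0.280) to Tat (0.38, limma adjusted p = 0.432). Cyp2e1 and Ttr (-0.32, limma adjusted p = 0.364) were separated with SHIVA lower, as were 6.02% of all genes tested. Of the markers of Kupffer cells and macrophages, 5 of 5 tested lay above 0 in SHIVA livers, 0 were called, and the log2 of their summed signal ranged from 13.01 to 14.13 in WT and from 13.46 to 14.36 in SHIVA livers. Marco, a scavenger receptor of Kupffer cells, had 10.19, 9.38 and 11.94 in WT livers and 12.53, 12.81, 11.68 and 11.16 in SHIVA livers. WT replicate 3 thus lay inside the SHIVA range of Marco. It also lay inside that of Adgre1, Cd68 and Vsig4, but in Clec4f (13.275) it lay above every SHIVA liver (12.55 to 13.139). Bile duct markers lay below 0 in 3 of 3 tested, 0 were called, and their summed log2 signal ranged from 8.95 to 10.59 in WT and from 8.78 to 9.64 in SHIVA livers. Of 6 blood markers tested 4 lay above 0, with a median of 0.53 and 0 called, and the log2 of the summed list signal was 15.49 to 15.95 in WT and 15.79 to 16.65 in SHIVA livers. Among them Alas2, the heme synthesis enzyme of red cell precursors, was separated and higher in SHIVA livers (0.63, limma adjusted p = 0.237).

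Endothelial markers lay above 0 in 3 of 5, with a median of 0.08, 0 called and summed log2 signals of 13.19 to 13.27 in WT and 12.81 to 13.22 in SHIVA livers. Lyve1, a hyaluronan receptor of sinusoidal endothelium, had the largest change, 0.79 (limma adjusted p = 0.289), with overlapping groups. Kdr (-0.29) and Stab2 (-0.07) lay below 0. Stellate cell markers lay above 0 in 1 of 4, with a median of -0.13, 0 called and summed log2 signals of 13.63 to 13.79 in WT and 12.65 to 13.71 in SHIVA livers. The part of any of these cell types in the peroxin values was not tested.

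In a bulk liver sample, fewer cells of a type and less RNA per cell cannot be told apart. Of the adipose markers Cfd, Plin1 and Lep, and of the pancreas markers Cpa1, Prss1 and Pnlip, were not well above background on any array. Adipoq was so in 1 SHIVA liver (log2 signal 5.01), Cela1 in 1 WT liver, and the pancreas marker Ctrb1 on all 7 arrays, with log2 signals from 7.79 to 8.63 and a log2 fold change of 0.22 (limma adjusted p = 0.721). The 7 arrays shared 1 slide and 1 scan, and WT livers filled its row 1 and SHIVA livers its row 2, which means that genotype and slide position cannot be told apart. The share of probes well above background ran from 44.5% to 48.7%, and saturated spots numbered 0. The p-values set the difference between groups against the spread between single mice, which includes array error because each mouse had 1 array. The number of arrays limits their precision.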

How the data were processed

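RNA of each liver was labelled with Cy3 and hybridized to its own array. The authors deposited, per array, scanner output from Agilent Feature Extraction 10.5.1.1: spot intensities with spatial and multiplicative detrending, no local background subtraction and no normalization between arrays, and flags per spot, of which those for outliers, saturation and signal well above background were used here. The authors also deposited log2 values, quantile normalized in R per the methods, ranked exactly as the uncorrected mean signal is.

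Here the processed intensities were quantile normalized over 7 arrays and put on the log2 scale. Spots marked as uneven or deviant (120 to 163 per array) were dropped, and spots of a probe were averaged. Probes were renamed through RefSeq accessions of GRCm38.p6 (26413 probes), and a gene with several probes was read by its brightest on average. Genes well above background on at least 3 arrays were fitted with limma 3.58.1 in R 4.3.3, called at an adjusted p under 0.05. The methods name an unpaired t-test in general and none for the arrays, so it was an alternative. Fold changes are SHIVA over WT. On simulated data with 19961 genes, 200 of them changed by a log2 value of 2, 89.5% were called, all in the right direction, and 2.19% of calls were false. The fitted change of every peroxin was smaller than the simulated one (Pex11a, the largest, -1.64). The simulation therefore does not give the share that would be called at their size.

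The members and lists were chosen with earlier results of these data known. Named were all members, up to 4 genes per list with the largest change, genes with primers in the study, and the 5 genes most like Pex11a; the named markers, Pex11g, Pex26 and Wdr93 were chosen after their values were seen. Some genes this rule names are not reported here. Replicate numbers did not pair the mice. The scanner's saturation flag was 0 for every spot. A slide effect could not be fitted.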

Additional observations from a re-analysis of the deposited data

Results flagged for a closer look

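SHIVA replicate 2 reached 12.12 (log2 signal) for Pex11a, against 11.91 to 11.94 in the remaining SHIVA livers. The gap to its nearest neighbour was 0.858 of the range of the SHIVA group, above Dixon's critical value for 4 samples. It was the 1 peroxin of 8 with such a gap, and chance gives one in about 1 of 20 groups. The value lay below every WT liver.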

How the results depend on the processing

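Pex11a, Pex16 and Pex19 kept a fold change below 0 and an unadjusted p under 0.05 in all 17 alternatives, while Pex16 and Pex19 passed the adjusted threshold in none (smallest adjusted p 0.0575 and 0.0929 from limma). The adjusted p of Pex11a ranged from 0.00312 to 0.443. Pex5 and Pex14 kept their sign in all 17 and passed in none, but Pex14 was -0.67 when WT replicate 3 was left out and -0.24 when WT replicate 2 was, array weights moved it to -0.69, normexp to -0.28, and Pex5 was -0.16 without WT replicate 2. The count of peroxins called was 0 except for 1 with array weights and 1 without WT replicate 3 (0 to 1 over the leave-one-out fits), both times Pex11a, at -1.87 with array weights and between -2.22 and -1.33 when single mice were left out.

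Pex6 turned above 0 with the mean signal (0.0038), normexp (0.0033), the authors' table (0.0051), the mean of its probes (0.030), array weights (0.067), the replicate block (0.0033), 6 arrays without the block (0.0033, added after seeing the data) and its other probe (0.087), and ranged from -0.33 to 0.19 when single mice were left out. Pex7 turned with the mean signal (0.041), normexp (0.043), the authors' table (0.047) and array weights (0.041), with a leave-one-out range from -0.13 to 0.050. Pex2 turned without WT replicate 1, in a range from -0.21 to 0.076. The cause was not tested.

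Over all genes, 75 calls became 142 with the mean signal and 142 with the authors' table, 13 without a filter on dim probes, 268 with array weights, and 0 by the methods' t-test (2301 at an unadjusted p under 0.05). Leaving out single mice gave 3 (without WT replicate 1) to 416 calls (without WT replicate 3), with 8 without WT replicate 2, 7 without SHIVA replicate 1 and 13 without SHIVA replicate 3. Deviations of mice with the same number correlated at -0.049, 0.012 and 0.24, so the numbers were not taken as pairs. The replicate block, on 6 mice, left 32 calls against 53 in the same 6 without it, and called 0 peroxins, with Pex11a at -1.62 (adjusted p = 0.156 from limma).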
